A study of Mus musculus with 2 samples.

Results

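Transcripts of 44 lysosomal genes were followed in microglia of the mouse hypothalamus, sorted by whether they carried injected plasma protein. The genes were given as a list and comprise 21 hydrolases and their helpers, 7 membrane proteins, 15 subunits of the vacuolar ATPase (V-ATPase) and the transcription factor Tfeb. All 44 were found by symbol among the 31053 genes of the deposited matrices. The animals were young wild-type mice, pooled in a number not given, and cells were taken 20 hours after dye-coupled plasma protein had been injected. Fluorescence sorting separated microglia without the dye (plasma-negative) from microglia with it (plasma-positive), and each sort gave 1 droplet library. With 1 library a group no difference has a replicate check, no test was run, and every interval below is a 95% interval that covers counting error only. Differences between mice, sorts and library preparations cannot be told apart from the effect of plasma uptake.

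Lysosomes are the acidic compartments in which material taken up by a cell is broken down. The V-ATPase pumps protons into them with energy from ATP: its V1 sector in the cytosol splits ATP and its V0 sector in the membrane carries the protons. Soluble hydrolases cleave glycolipids, glycosaminoglycans, glycans and proteins, and membrane proteins such as Lamp1 protect the limiting membrane or carry products out. Microglia, the resident macrophages of the brain, are rich in these transcripts, and inherited loss of many of the hydrolases causes storage diseases that affect the brain. TFEB and its relatives bind a short palindrome, the CLEAR element, in the promoters of many lysosomal genes.

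The palindrome CACGTG at the heart of that element was searched on both strands in RefSeq promoters (GRCm38.p6), each running from 250 bases before to 50 bases after a transcription start. Promoters were found for 39 of the 44 genes, and 13 of these 39 genes (33.3%) held it, against 8.09% of the 27025 genes with a promoter in the table. All 13 also held the longer TCACGTG, which contains it, on one strand or the other, whereas 4.29% of all genes did. The 13 were Arsa, Gaa, Gla, Glb1, Naglu and Sgsh among the hydrolases, Cd164, Lamp1 and Mcoln1 among the membrane proteins, and Atp6v0b, Atp6v0d1, Atp6v0e and Atp6v1a in the V-ATPase. A match describes the letters in this window and is not a measured binding site. The 5 stretches below are the 100 bases before the start, with TCACGTG or its reverse complement in capitals. They are shown because they cover all 3 classes and because, in the libraries, their genes lay on both sides of an equal level.
Lamp1 (chr8:13159061-13159160, plus strand): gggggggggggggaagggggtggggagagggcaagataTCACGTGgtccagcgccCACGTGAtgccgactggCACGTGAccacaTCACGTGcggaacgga
Atp6v0b (chr4:117887330-117887429, minus strand): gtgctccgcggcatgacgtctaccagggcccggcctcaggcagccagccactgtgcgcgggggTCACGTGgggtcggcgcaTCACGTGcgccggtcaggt
Glb1 (chr9:114400978-114401077, plus strand): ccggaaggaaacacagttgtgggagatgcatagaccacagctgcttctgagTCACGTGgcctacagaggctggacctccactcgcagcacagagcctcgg
Arsa (chr15:89477425-89477524, minus strand): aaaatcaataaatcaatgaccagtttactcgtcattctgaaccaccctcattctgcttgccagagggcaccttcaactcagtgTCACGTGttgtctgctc
Sgsh (chr11:119355511-119355610, minus strand): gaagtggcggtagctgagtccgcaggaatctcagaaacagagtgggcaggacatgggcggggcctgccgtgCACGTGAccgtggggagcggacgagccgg
Lamp1 held 4 matches within 61 bases of its start and Atp6v0b held 2, and these genes differed in opposite directions between the libraries, as described below. The 11 genes with the palindrome that reached 10 CPM (counts per 1000000 UMIs) had a median log2 ratio of -0.0050 and ran from -0.13 to 0.15, with 5 above 0. The 25 such genes without it had a median of 0.05, ran from -0.21 to 0.25, and 19 lay above 0. Of all 8355 genes at that level, 35.7% lay above 0. The 2 sets also differed in level. The median in the plasma-negative library was 47.1 CPM over the 13 genes with the palindrome and 176 CPM over the 26 without. Whether the palindrome goes with the ratio was not tested.

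**Figure D1:**
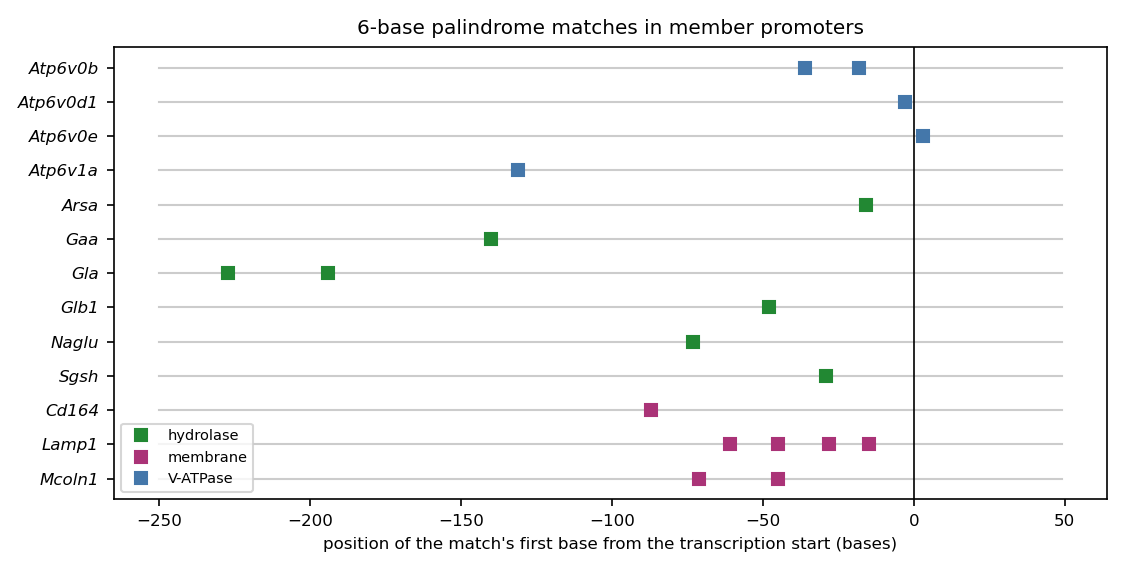
Position of each CACGTG match in the 13 member promoters that held it, in bases from the RefSeq transcription start (vertical line), with squares coloured by class and grey lines marking the searched window. Most matches lie within 100 bases before the start, while Gaa, Atp6v1a and both matches of Gla lie farther out, and that of Atp6v0e lies just after it.

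After filtering, 9860 plasma-negative cells with 34534518 UMIs (unique molecular identifiers, each marking 1 captured RNA molecule) and 10362 plasma-positive cells with 41984977 UMIs were compared. The median depth was 3270.5 UMIs per plasma-negative and 3753 UMIs per plasma-positive cell, and the median mitochondrial share was 1.08% and 1.27%. The label microglia was borne out by the markers: all 11 microglia markers were found, the least frequent in 64.4% and 68.0% of the cells without and with plasma, and 9851 and 10356 cells held at least 3 of them. Over 59 markers of 12 other cell types the median was 0.0099% of cells, and the most frequent was Cd79b at 15.4%. Because no other cell type was at hand, the share of cells that free RNA alone would give for a lysosomal gene could not be measured. Levels are counts near the 3' end of each molecule, so they were not divided by gene length.

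The 44 genes together made up 1.22% of plasma-negative and 1.27% of plasma-positive UMIs, from 421312 and 531452 UMIs. Hydrolases and helpers gave 0.518% (0.515% to 0.520%, exact binomial) and 0.554% (0.552% to 0.556%), which made this class 1.07-fold higher with plasma, for a log2 ratio of 0.10 (0.09 to 0.11). Membrane proteins gave 0.419% and 0.434%, for a log2 ratio of 0.05 (0.04 to 0.06). The V-ATPase gave 0.281% and 0.275%, for a log2 ratio of -0.03 (-0.04 to -0.02). Hydrolases and membrane proteins stayed above 0 under all 10 ways of filtering, scaling or weighting the cells. The V-ATPase turned to 0.01 with TMM or median-of-ratios scaling, and to 0.03 without Atp6v0b, so it has no firm direction. Across the 8355 genes at 10 CPM or more in at least 1 library, the median log2 ratio was -0.04, with quartiles of -0.11 and 0.04.

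Of the 44 members, 41 reached 10 CPM in at least 1 library, and Gla, Sgsh and Atp6v0c did not. None of the 41 was 1.2-fold or more higher and none was 1.2-fold or more lower with plasma, where 1.32% and 2.31% of the 8355 genes were. Gm2a passed 1.2-fold higher in 4 of the other settings: with the highest doublet scores removed, with TMM, with median-of-ratios, and with a total free of mitochondrial and ribosomal genes. Sgsh passed 1.2-fold lower as a mean over cells. No share of all genes that passed 1.2-fold in these settings stands beside the calls of Gm2a and Sgsh. At 1.1-fold, 4 members were higher (Gm2a, Galc, Atp6v0e and Psap), a share of 41 close to the 6.82% of all genes, and 1 was lower (Idua), against 16.5%. The members' median log2 ratio was 0.05, and 28 of 41 lay above 0, whereas 35.7% of the 8355 genes did. With the minimum lowered to 1 CPM all 44 entered, and 0 were 1.2-fold higher (5.14% of all genes) and 1, Atp6v0c, was 1.2-fold lower (7.33%). With it raised to 50 CPM, 30 entered and 0 passed 1.2-fold in either direction (0.678% and 0.650%). With TMM scaling 33 of 41 lay above 0, and 49.9% of all genes did. Taken over all 10 settings, 21 members were above 0 in each, 6 were below 0 in each, and 14 took both signs. The same count was not made over all genes, so no background share stands beside these numbers. TMM, median-of-ratios and the total free of mitochondrial and ribosomal genes each raised every ratio by a constant. Such a shift can move a member from below 0 to above 0, but not the reverse.

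**Figure D2:**
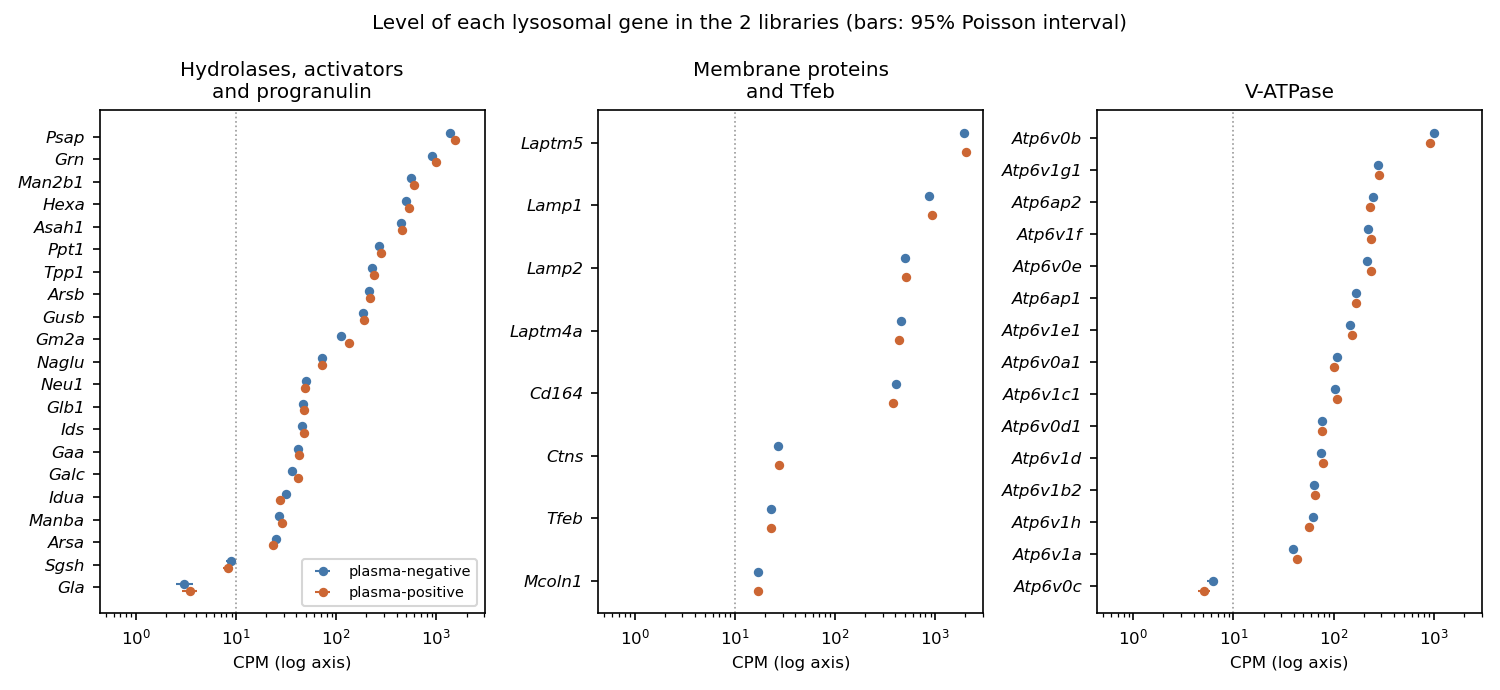
Level of each of the 44 genes in counts per 1000000 UMIs (log axis) in the plasma-negative (blue) and plasma-positive (orange) library, with 95% Poisson intervals and a dotted line at 10 CPM. Levels run from about 3 CPM for Gla to 2027 CPM for Laptm5, and in nearly all genes the gap between libraries is small beside the range between genes.

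Among genes of glycolipid breakdown Gm2a had the highest ratio. Gm2a, which lifts GM2 ganglioside out of the membrane for the enzyme, stood at 112 CPM (108 to 115) without and 133 CPM (129 to 136) with plasma. Its log2 ratio of 0.25 (0.19 to 0.31) was the highest of the 41 compared members. Psap, the precursor of the saposins that help degrade sphingolipids, was the most abundant hydrolase-class gene, at 1375 CPM (1363 to 1388) without and 1518 CPM (1506 to 1530) with plasma, for a log2 ratio of 0.14 (0.13 to 0.16). Psap alone gave 26.6% and 27.4% of the UMIs of its class, and without it the class was at 0.08 (0.07 to 0.09). Hexa, the enzyme subunit served by the Gm2a protein, was at 501 CPM (494 to 509) without and 532 CPM (525 to 539) with plasma, a smaller difference at 0.09. Galc, which cleaves galactosylceramide of myelin, was at 36.1 CPM (34.1 to 38.1) without and 41.2 CPM (39.2 to 43.1) with plasma. Its log2 ratio of 0.19 (0.08 to 0.30) rests on 1246 and 1728 UMIs. Asah1, the acid ceramidase, was nearly level at 443 and 449 CPM. Glb1, the beta-galactosidase, was at 47.1 and 47.5 CPM, and Neu1, the sialidase, at 50.3 and 49.02 CPM. Arsa, which removes sulfate from sulfatide, was at 24.99 and 23.6 CPM, and its interval of -0.22 to 0.05 spans an equal level. Gla, the alpha-galactosidase A, was the least abundant member of all, at 3.04 CPM (2.49 to 3.68) without and 3.45 CPM (2.91 to 4.06) with plasma, from 105 and 145 UMIs. As a group the 9 glycolipid genes were 1.08-fold higher with plasma, for a log2 ratio of 0.11. Psap gave 53.0% and 54.3% of the group's UMIs, and without it the group was at 0.07 (0.05 to 0.09). The median over its 8 compared genes was 0.05, and 2 of them lay below 0.

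The enzymes of glycosaminoglycan breakdown differed less, with a summed log2 ratio of 0.03 that came to -0.00023 when 10 bins of cell depth were weighted equally. Arsb, which desulfates dermatan sulfate, led the group at 211 CPM (206 to 216) without and 219 CPM (214 to 223) with plasma. Gusb, the beta-glucuronidase, was at 184 and 190 CPM, and Naglu, an enzyme of heparan sulfate breakdown, at 72.1 and 71.8 CPM. Ids, the iduronate sulfatase, was at 45.2 and 47.3 CPM. Idua, the iduronidase that acts after Ids, had the lowest ratio of the 41 members, at 31.4 CPM (29.5 to 33.3) without and 27.2 CPM (25.6 to 28.8) with plasma, for a log2 ratio of -0.21 (-0.33 to -0.09). Ids and Idua thus stood on opposite sides of an equal level, although the interval of Ids, -0.03 to 0.16, includes it. Idua overlaps Dgkq, on the other strand, which was at 6.78 and 7.15 CPM, and the use of strand in counting was not given in the sources used here. Arsa likewise overlaps C230037L18Rik on the other strand, at 10.6 and 8.19 CPM, and Glb1 overlaps Tmppe on its own strand. Sgsh, a sulfatase of heparan sulfate, was at 8.83 and 8.22 CPM, below the level compared.

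The 6 remaining genes of this class, for glycan and protein breakdown, all lay above an equal level in the summed counts, although Gaa and Manba took both signs over the 10 settings. Man2b1, the acid alpha-mannosidase, was at 554 CPM (547 to 562) without and 604 CPM (597 to 612) with plasma, for a log2 ratio of 0.12 (0.10 to 0.15), while Manba, the beta-mannosidase, was far scarcer at 27.0 and 28.5 CPM. Gaa, which degrades glycogen, was at 41.3 and 42.6 CPM, and its interval of -0.06 to 0.15 includes an equal level. Grn, encoding progranulin, a secreted and lysosomal glycoprotein whose loss causes neuronal ceroid lipofuscinosis, was at 913 CPM (903 to 923) without and 986 CPM (976 to 995) with plasma, for a log2 ratio of 0.11 (0.09 to 0.13). Ppt1, a thioesterase that removes palmitate from proteins, was at 265 and 280 CPM (log2 ratio 0.08, 0.04 to 0.12). It overlaps Cap1, on the other strand, which was at 142 and 152 CPM, so with strand use not given its level is uncertain. Tpp1, a tripeptidyl peptidase, was at 229 and 237 CPM, for a log2 ratio of 0.05.

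**Figure D3:**
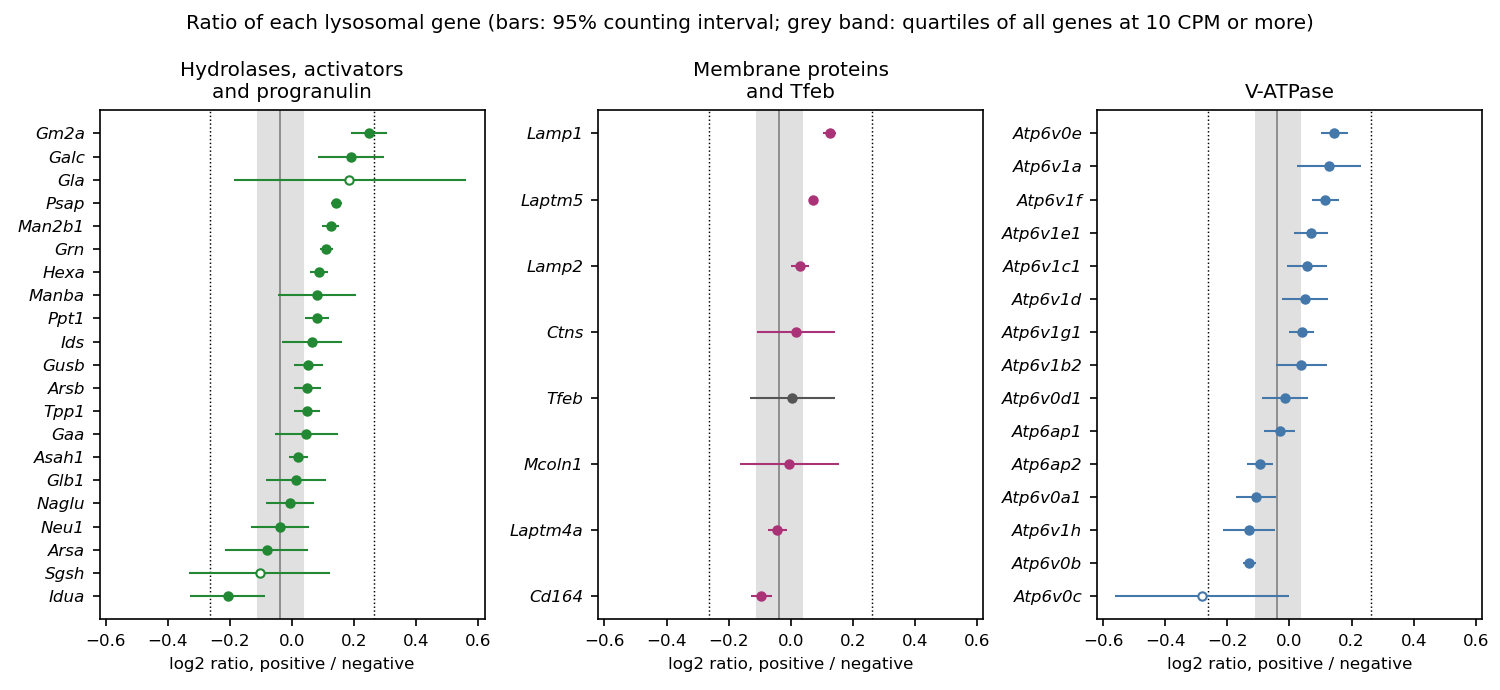
Log2 ratio of plasma-positive over plasma-negative level for each gene, with 95% counting intervals, in 3 panels by class, where open circles mark genes under 10 CPM. The grey line and band give the median and quartiles of all 8355 genes at 10 CPM or more, and the dotted lines mark 1.2-fold. Most hydrolases lie to the right of the band's middle, and no filled circle crosses a dotted line.

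Membrane proteins spread on both sides. Laptm5, a membrane protein of blood-lineage cells, was the most abundant member of all 44 genes, at 1928 CPM (1913 to 1942) without and 2027 CPM (2013 to 2040) with plasma, for a log2 ratio of 0.07 (0.06 to 0.09). It ranked 37 among all genes of the plasma-negative library and gave 46.0% of its class's UMIs there. Without it the class was at 0.03 (0.02 to 0.04). Lamp1, a glycoprotein that coats the inside of the lysosomal membrane, was at 863 CPM (853 to 872) without and 941 CPM (931 to 950) with plasma, and its log2 ratio of 0.12 (0.10 to 0.15) was the highest of the class. Its relative Lamp2, which also serves in autophagy, was closer to level at 503 and 513 CPM. Laptm4a, a sorting protein of late endosomes, was at 454 and 440 CPM, for a log2 ratio of -0.04. That ratio was above 0 in 1 of the 10 settings, at 0.0044. Cd164, the sialomucin endolyn, had the lowest ratio of the class, at 403 CPM (396 to 410) without and 377 CPM (371 to 383) with plasma, for a log2 ratio of -0.09 (-0.13 to -0.06) and below 0 in all 10 settings. The transporter and the channel of this class were scarce. Ctns, which exports cystine, was at 27.3 and 27.6 CPM, and Mcoln1, a calcium-permeable channel, at 17.1 CPM in both libraries. Tfeb, the transcription factor, was at 22.9 CPM (21.3 to 24.5) without and 23.0 CPM (21.5 to 24.5) with plasma, and its log2 ratio of 0.01 (-0.13 to 0.14) leaves room for a difference of about 1.1-fold either way.

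The V-ATPase sectors lay on opposite sides. The 5 V0 genes summed to 1412 and 1338 CPM, for a log2 ratio of -0.08 (-0.10 to -0.06) that stayed below 0 in all 10 settings. The 8 V1 genes summed to 981 and 1021 CPM, for a log2 ratio of 0.06 (0.04 to 0.08) that stayed above 0 in all 10. The V0 value rests on 1 gene: Atp6v0b, a proteolipid of the proton-carrying ring, gave 71.4% of the sector's plasma-negative UMIs, and without it the sector was at 0.05 (0.01 to 0.08). Atp6v0b was at 1008 CPM (997 to 1019) without and 921 CPM (912 to 930) with plasma, for a log2 ratio of -0.13 (-0.15 to -0.11), and it was detected in 92.2% and 93.0% of cells. Atp6v0e, a small membrane subunit, went the other way, at 213 CPM (208 to 218) without and 236 CPM (231 to 241) with plasma, for a log2 ratio of 0.15 (0.10 to 0.19). Atp6v0a1, which lines the proton path, was at 108 CPM (104 to 111) without and 99.9 CPM (96.9 to 103) with plasma, for a log2 ratio of -0.11 (-0.17 to -0.04). Atp6v0d1, the link between the sectors, was level at 77.2 and 76.4 CPM.

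Atp6v0c, the main proteolipid of the ring, was listed at only 6.20 CPM (5.39 to 7.08) without and 5.10 CPM (4.44 to 5.83) with plasma, from 214 UMIs in each library. The last 500 bases of its transcripts matched 2 annotated pseudogenes, Atp6v0c-ps1 and Atp6v0c-ps2, without a mismatch in the best match. How reads shared between copies were counted was not given in the sources used here, so its level is uncertain and the part of these copies in it was not tested. Atp6v1f matched 1 pseudogene at 98.8% and is uncertain for the same reason. Arsb shared its end with Gm26527, a gene on the other strand that was at 3.30 and 2.95 CPM.

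In the V1 sector the subunits were more even in level than in V0, from 39.4 to 275 CPM in the plasma-negative library. Atp6v1g1, part of the stator stalks that hold the catalytic head, was the most abundant. It was at 275 CPM (270 to 281) without and 283 CPM (278 to 288) with plasma. Atp6v1f, of the central rotor, was at 218 CPM (213 to 223) without and 236 CPM (232 to 241) with plasma. Its log2 ratio was 0.12 (0.07 to 0.16). Atp6v1e1, the other stalk subunit, was at 144 and 151 CPM. Atp6v1c1, which joins the stalks to V0, was at 103 and 107 CPM, and the rotor subunit Atp6v1d at 75.4 and 78.1 CPM. Of the genes for the catalytic head, Atp6v1a, which binds the ATP that is split, was at 39.4 CPM (37.3 to 41.6) without and 43.1 CPM (41.1 to 45.1) with plasma, for a log2 ratio of 0.13 (0.03 to 0.23). Its partner Atp6v1b2 was at 63.7 and 65.4 CPM. Atp6v1h, a regulatory subunit, was the only V1 gene below an equal level in the summed counts, at 62.1 CPM (59.5 to 64.8) without and 56.8 CPM (54.5 to 59.1) with plasma, for a log2 ratio of -0.13 (-0.21 to -0.05). Both accessory proteins had values below an equal level. Atp6ap2, also called the prorenin receptor, was at 245 CPM (240 to 250) without and 230 CPM (225 to 234) with plasma, for a log2 ratio of -0.09 (-0.14 to -0.05), and Atp6ap1 was at 169 and 165 CPM, with an interval of -0.08 to 0.02 and both signs over the 10 settings.

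Nearly every cell carried transcripts of the group. With each cell thinned to 1000 UMIs, which left out 796 plasma-negative and 603 plasma-positive shallower cells, the median cell held 5 hydrolase, 4 membrane and 3 V-ATPase UMIs in both libraries. Cells with no hydrolase UMI made up 0.938% and 0.687%. The mean was 5.12 ± 2.43 (SD over 9064 cells) and 5.47 ± 2.53 hydrolase UMIs (SD over 9759 cells). Laptm5 was seen in 82.9% and 85.1% of thinned cells, and in 94.3% and 96.4% of cells unthinned. Psap was seen in 72.7% and 75.6%, Gm2a in 10.2% and 12.02%, and Atp6v0b in 63.2% and 60.3% of thinned cells. Unthinned, Gm2a was seen in 29.4% and 37.1% of cells. The variance of the thinned counts divided by their mean had a median of 1.04 and 1.03 over the 41 members. Over the 8355 genes its medians were also 1.03 and 1.03. This ratio is near 1 where cells differ by sampling alone, but also where a gene has few counts per cell. For most single members it therefore cannot show whether cells differ. For the summed counts of a class it was 1.15 and 1.17 for hydrolases and 1.17 and 1.14 for membrane proteins. For the V-ATPase it was 1.05 and 1.02.

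Depth and mitochondrial share differed between the libraries, so the classes were also compared within 10 bins of like cells. Hydrolases were higher in the plasma-positive cells in 10 of 10 bins of depth, with log2 ratios from 0.06 to 0.13, and in 10 of 10 bins of mitochondrial share, from 0.04 to 0.10. Membrane proteins were also higher in all 10 bins of each kind, from 0.0076 to 0.21 by depth, with 0.21 in the shallowest bin. With bins numbered from the lowest, their interval included an equal level in depth bins 3, 6, 7, 9 and 10. The same held for mitochondrial bins 3, 5, 6 and 9. The V-ATPase was below 0 in 10 of 10 bins of depth and in 9 of 10 bins of mitochondrial share, and in each bin of depth its interval included an equal level. In the shallowest bin, cells of 501 to 1416 UMIs, membrane proteins took 0.253% and 0.294% of UMIs, while in the bins above it they took between 0.390% and 0.447%.

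Clustering of all cells, with the 44 genes left out of the genes used, gave 7 clusters, described here without a test. Cluster 0 held 3778 plasma-negative and 4390 plasma-positive cells, and cluster 2 held 4436 and 4302. The counts were 100 and 497 in cluster 1, 222 and 393 in cluster 3, 902 and 395 in cluster 4, 404 and 331 in cluster 5, and 18 and 54 in cluster 6. The sizes were not tested, with 1 library a group. Cluster 1 was led by the interferon-induced genes Ifi211, Ifit3b and Ifi206, cluster 3 by Ccl4, Ccl3 and Lpl, and cluster 6 by the cell division genes Pbk, Bub1 and Ube2c. Cluster 4 had a median mitochondrial share of 0.227%, and cluster 5 was shallow, with a median of 768 UMIs. Cluster 5 had 10 of 11 microglia markers in at least 25% of its cells and the others had all 11. The hydrolase ratio was above 0 in all 7 clusters, from 0.01 (-0.14 to 0.17) in cluster 6, with 18 and 54 cells, to 0.13 (0.06 to 0.19) in cluster 1. The membrane class was below 0 in cluster 3 alone, at -0.03 (-0.10 to 0.04), and the V-ATPase was above 0 in clusters 3 and 6, with intervals that include an equal level. Hydrolases made up 0.534% and 0.583% of UMIs in cluster 1, against 0.458% and 0.463% in cluster 6. The membrane class was lowest in cluster 5, at 0.288% in both libraries, against 0.418% and 0.430% in cluster 0.

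Several members differed between clusters by more than 1.2-fold. Those named here were chosen after their values were seen, and no share of all genes that differed as much stands beside them. Lamp1 was at 1313 and 1323 CPM in the plasma-negative and plasma-positive cells of cluster 3, against 943 and 1009 CPM in cluster 0. The V-ATPase subunits Atp6v1g1 (428 and 408 CPM, against 321 and 322) and Atp6v1f (353 and 392 CPM, against 261 and 271) were also higher in cluster 3 than in cluster 0. Atp6v0b was lower there, at 609 and 666 CPM against 1048 and 961 CPM. Cd164 was lower too, at 274 and 204 CPM against 364 and 340 CPM. In the shallow cluster 5 Atp6v1g1 was at 111 and 85.4 CPM and Laptm5 at 1405 and 1344 CPM, while Man2b1 was at 782 and 818 CPM, above its 547 and 613 CPM in cluster 0. In the dividing cells of cluster 6 Asah1 was at 217 and 266 CPM against 464 and 460 CPM in cluster 0, and Arsb at 293 and 337 CPM against 188 and 204 CPM. For Asah1 in cluster 6 these levels rest on 20 and 86 UMIs.

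**Figure D4:**
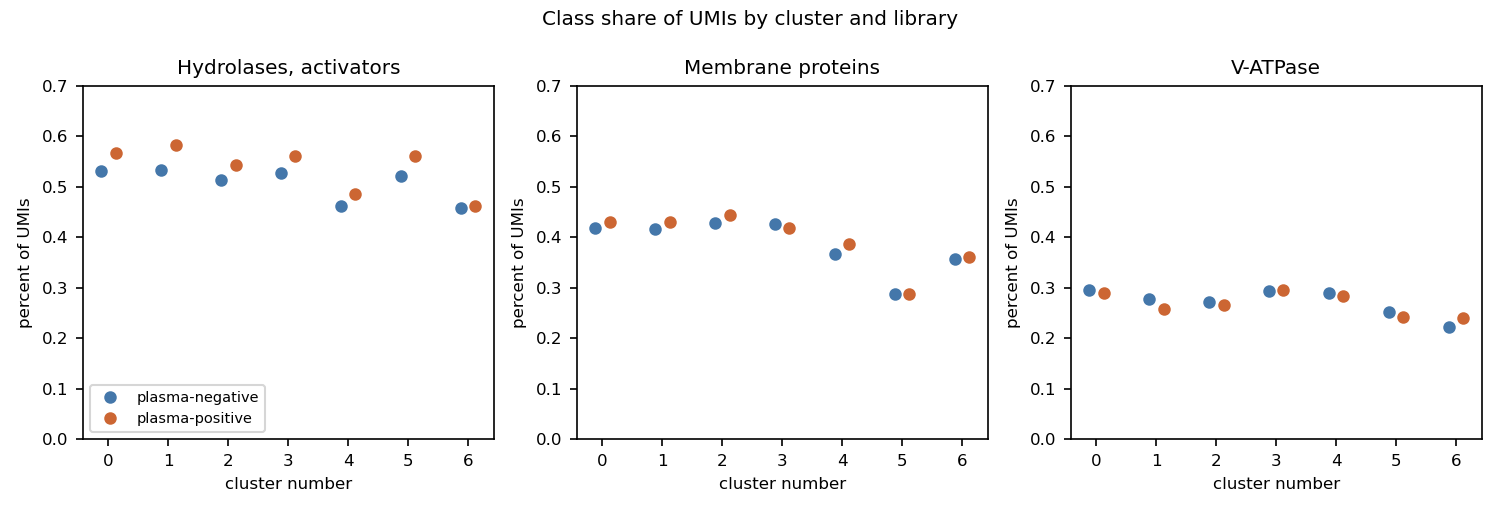
Share of UMIs of each class (vertical axis, percent) in the 7 clusters (horizontal axis), with blue points for plasma-negative and orange points for plasma-positive cells. Hydrolase points are higher in plasma-positive cells in each cluster, and the membrane class is lowest in cluster 5 at 0.288%.

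Of 81 other lysosomal genes, 64 reached 10 CPM. Their median log2 ratio was -0.01, and 25 lay above 0 and 39 below, where 35.7% of all 8355 genes lay above 0. At 1.2-fold 1 was higher, as 1.32% of all genes were, and 0 were lower, where 2.31% of all genes were. The higher one was Gnptab, which makes the mannose 6-phosphate tag on lysosomal enzymes. It was at 15.5 and 19.0 CPM (log2 ratio 0.29, 0.13 to 0.45). Npc2, which carries cholesterol inside lysosomes, was the next highest at 586 and 679 CPM (0.21, 0.19 to 0.24). The tetraspanin Cd63 followed at 381 and 415 CPM. The lowest were Aga, the aspartylglucosaminidase, at 73.2 and 63.6 CPM (-0.20, -0.28 to -0.12), the membrane transporter Mfsd8 at -0.20 and the potassium channel Tmem175 at -0.16. By list, the 16 compared enzymes and helpers had a median of -0.02, with 6 above 0. The 17 membrane and transport genes were also at -0.02, with 6 above 0. Cd68, the most abundant of the 17, was at 587 and 565 CPM. The 9 sorting genes had a median of 0.06, with M6pr, a mannose 6-phosphate receptor, at 165 CPM in both libraries. The 8 further V-ATPase isoform and assembly genes had a median of -0.05. Atp6v0a2, an isoform of Atp6v0a1, led them in level at 123 and 130 CPM and stood above Atp6v0a1 in both libraries. In the 14 genes of the TFEB family and its control the median was -0.03, and Lamtor4, of the complex that anchors nutrient sensing to the lysosome, was the most abundant at 238 and 248 CPM.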

How the data were processed

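Droplet single-cell RNA libraries (Chromium 3' v3.1, per the labels' protocols) of plasma-negative and plasma-positive hypothalamic microglia were compared, 1 library each. What the authors deposited were unnormalised UMI counts, 1 value per gene in each cell. The file headers name Cell Ranger 6.1.2, whereas the submitters' processing notes name Cell Ranger 3.0.1; the genome build, annotation and strand use were not given in the sources used here. Totals were 34549522 UMIs in 9878 cells and 42006454 UMIs in 10390 cells. Cell barcodes were not used here.

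Cells were kept with at least 500 UMIs, 300 genes and at most 10% mitochondrial UMIs, which removed 18 and 28 cells. Scrublet (scanpy 1.11.5) called 0 doublets in both libraries and so had not worked; no cell was removed as a doublet, and removing the 778 and 859 highest-scoring cells was an alternative. Counts were summed per library and divided by its total (CPM). Intervals were computed with scipy 1.17.1: exact Poisson for levels, Clopper-Pearson for shares, and for ratios the binomial interval given the summed count. The ratio interval was checked on simulated independent Poisson counts only. Those counts hold no spread between cells beyond counting, so the check says nothing about such spread. Clustering used 2000 variable genes, 30 components, 15 neighbours and Leiden resolution 0.5. Coordinates, overlaps and copies (BLAST 2.17.0, at least 95% identity over 200 bases) come from GENCODE M21 on GRCm38, and promoters from RefSeq; these need not match the authors' annotation. TMM factors came from edgeR 4.0.16.

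The members and lists were chosen with earlier results of these data known. The text names all 44 members, and of the other lysosomal lists the 3 highest and 3 lowest ratios and the most abundant gene of each. Alternatives were the cell filters, removal of the highest doublet scores, 3 other scalings, the mean over cells, thinning and equal weighting of depth bins. Genes named by cluster were chosen after their values were seen.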

Additional observations from a re-analysis of the deposited data

How the results depend on the processing

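With TMM, median-of-ratios and a total without mitochondrial and ribosomal genes, the log2 ratio was 0.14, 0.14 and 0.12 for hydrolases, 0.0887, 0.0918 and 0.0708 for membrane proteins, and 0.0107, 0.0138 and -0.00722 for the V-ATPase, since such scalings add 1 constant to every ratio. The largest shift of the median of all genes was from -0.04 to 0.0025. Without their most abundant members the classes were at 0.0814, 0.0311 and 0.0265. Membrane proteins were at 0.0754 as a mean over cells and 0.0712 with cells thinned. Members at 1.2-fold or more higher numbered 0, and 1 (Gm2a) with the highest doublet scores removed and with the 3 other scalings. Those lower numbered 0, and 1 with the mean over cells (Sgsh) or a minimum of 1 CPM (Atp6v0c, where 7.33% of genes were lower). For Gm2a and Sgsh no share of all genes in the same settings was at hand. At 1.1-fold there were 4 and 1. Depth limits the scarcest members, and the counting intervals of Gla (-0.19 to 0.56) and Sgsh (-0.33 to 0.12) included an equal level. Of 572 values of single members, 356 stayed within the main interval and 216 moved beyond it, which for shares of cells follows from depth itself. Of the alternative values for the main results, 33 were scored as the same and 22 as moved. No paired analysis was possible because there was only 1 library a group, so that no replicate could be left out either.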
